A study of Mus musculus with 24 samples.

Results

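NIH3T3 cells, an immortalised line of mouse embryonic fibroblasts, were compared 600 min after spermidine was added and just before its addition. All cells compared had first spent 96 h in 1 mM DFMO (difluoromethylornithine). This drug inactivates ornithine decarboxylase, through which cells form putrescine. The 3 dishes harvested at 0 min had received DFMO and no spermidine. The 3 dishes harvested at 600 min had received DFMO and then 10 µM spermidine with 1 mM aminoguanidine, an inhibitor of the amine oxidases that degrade polyamines in serum-containing medium. These 6 arrays were taken from a series of 24, which covers 8 time points with 3 biological replicates each, and RNA was measured on Affymetrix MoGene 1.0 ST arrays from 200 ng of total RNA per array. The 480 min dishes, treated as those at 600 min, served to show what was still changing at the end of the course.

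No array used here carries a label of 600 min in DFMO alone, and the labels give aminoguanidine only together with spermidine. Time in culture, aminoguanidine and spermidine therefore cannot be told apart in these differences. A single cell line was studied, polyamine content and cell number were not analysed here, and a smaller share of cells with an RNA cannot be told apart from less of it per cell. Values are on the log2 scale, so a difference of 1 is a 2-fold change. They are compared only within a gene, because probes differ in brightness.

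Spermidine and its precursor putrescine are small polycations that bind RNA and DNA. Cells deprived of them slow their translation, stop dividing and recruit stress responses, and spermidine is also the donor of the aminobutyl group of hypusine, a modified lysine of the translation factor eIF5A. In dividing cells, membranes and DNA are both made anew: the enzymes of sterol and fatty acid synthesis are controlled together by the SREBP transcription factors, and the genes of DNA replication by the E2F factors. In the integrated stress response, translation in general slows while ATF4 rises, and with it genes for amino acid supply.

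Of 19938 genes tested with limma at an adjusted p under 0.05, 2236 were higher at 600 min than at 0 min, which is 11.2% of all genes, and 3134 were lower, which is 15.7%. In the fit without dim genes, judged by a log2 level of 6, 1606 of 7245 genes were higher and 2699 lower. Larger shares of the brighter genes were thus called. The median difference over all 19938 genes was 0.01. The changes called were mostly small, with a median of 0.37 among those higher and -0.38 among those lower. Among called genes, 191 were higher and 100 lower by at least 1 on the log2 scale, and 29 were higher and 2 lower by at least 2, so large changes leaned upward although more genes were lower. Of the 5370 called genes, 3726 kept the call in every fit that left out 1 of the 6 arrays, 1485 of them higher and 2241 lower.

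The identity of the cells was checked against markers. Of 12 fibroblast markers 9 had a mean above 6 at 0 min and 10 at 600 min, a level used only as a rough mark of signal; the markers Fap and Lum lay below 4.1 on all 6 arrays. The mean level over the fibroblast markers was 9.27 to 9.33 at 0 min and 9.44 to 9.52 at 600 min. Of the other markers, only Lyz2 among 10 macrophage genes and Krt14 among 8 epithelial genes were above that level, and none of 6 endothelial, 6 adipocyte and 6 muscle genes was. The means over these lists lay between 3.80 and 4.44 at both times. No macrophage, endothelial or adipocyte marker was called. Of the epithelial markers Krt14 was 0.36 higher and Cdh1 0.29 lower, and of the muscle markers Des was 0.27 and Acta1 0.33 lower; the calls of Krt14, Des and Acta1 were lost without 2 to 5 of the 6 arrays (adjusted p up to 0.29). Their part in the results was not tested. Among the labelled type, 4 fibroblast markers were higher and 1 lower, led by Pdgfra, a receptor for platelet-derived growth factor, which was 1.37 higher. The share called was 41.7%, against 26.9% of all genes in either direction. The calls of the markers Pdgfrb, Vim and Sparc were lost without 3 to 5 of the 6 arrays (adjusted p up to 0.19). Array medians over all probe sets lay between 4.40 and 4.45.

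Sterol synthesis showed the largest rises. The mevalonate pathway builds the isoprenoid units from acetyl-CoA, and the enzymes after it join them into squalene, close the rings and trim the product to cholesterol. Of 7 measured mevalonate pathway genes 6 rose and none fell, with a median difference of 2.33 over the 7; of 11 measured genes from squalene to cholesterol all 11 rose, with a median of 2.09. Each of these 17 calls held when any 1 array was left out.

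**Figure D1:**
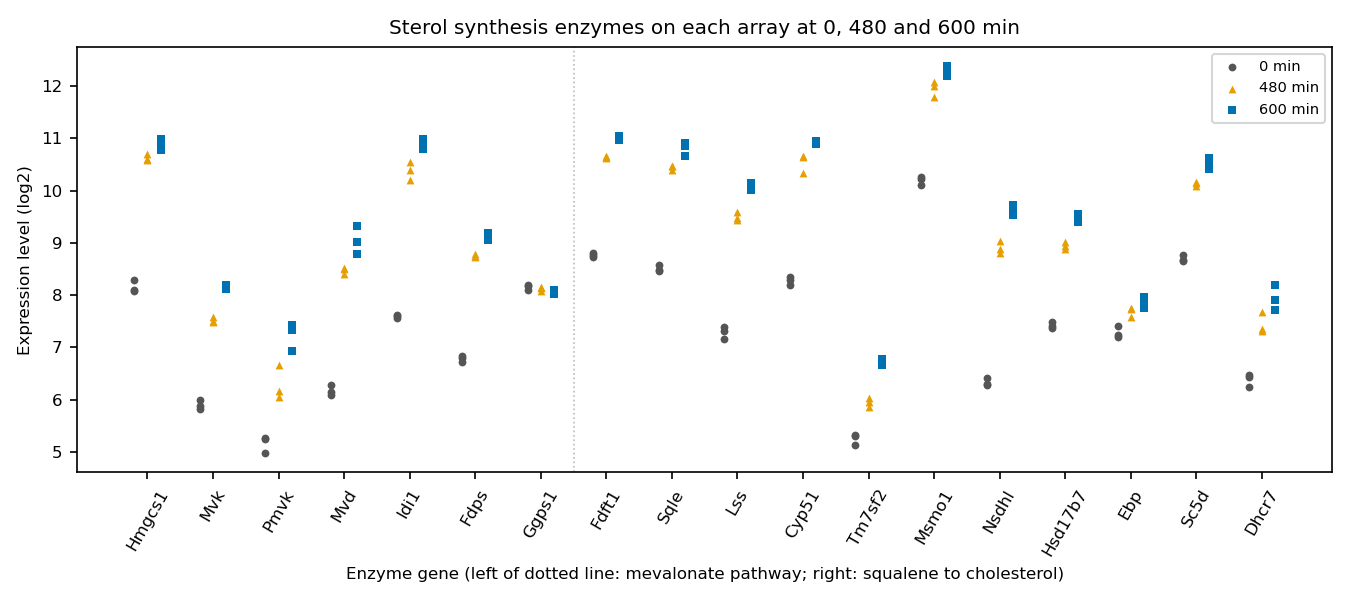
Expression level (log2) of 18 sterol synthesis enzymes on each array at 0, 480 and 600 min, 3 points per time, in pathway order. At 600 min every enzyme but Ggps1 lay above all 3 arrays at 0 min, by 0.58 (Ebp) to 3.29 (Idi1) on average.

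Idi1, the isomerase that interconverts the isoprenoid building blocks, stood at 7.59, 7.61 and 7.57 on the 3 arrays at 0 min and at 10.85, 10.99 and 10.79 at 600 min. Its difference of 3.29 ± 0.23 (SE; adjusted p = 2.62e-09, limma with Benjamini-Hochberg adjustment) was the largest rise of the comparison and equals a 9.76-fold rise. The arrays of each time lay close together, and the times did not overlap. Nsdhl, a dehydrogenase that helps remove the methyl groups at carbon 4 of the sterol ring, rose from 6.30, 6.41 and 6.29 to 9.57, 9.72 and 9.54. Here the difference was 3.28 ± 0.11 (adjusted p = 1.26e-13), the smallest p of the genes named.

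Along the mevalonate pathway, Hmgcs1, which makes HMG-CoA, went from 8.09, 8.09 and 8.29 to 10.88, 10.99 and 10.78 (2.73 ± 0.19, adjusted p = 3.68e-09). Mvk, mevalonate kinase, rose by 2.26 ± 0.09, Pmvk, the kinase after it, by 2.07 ± 0.13, Mvd, the decarboxylase that yields the first isoprenoid unit, by 2.87 ± 0.16, and Fdps, which joins such units to farnesyl diphosphate, by 2.33 ± 0.10 (adjusted p between 1.80e-12 and 7.95e-10). Ggps1 makes geranylgeranyl diphosphate on the branch that leads to protein prenylation and not to sterols. It was at 8.10, 8.18 and 8.19 before and at 8.02, 8.05 and 8.11 after, a difference of -0.10 ± 0.06 (adjusted p = 0.25).

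After farnesyl diphosphate, Fdft1, squalene synthase, rose by 2.24 ± 0.11, Sqle, squalene epoxidase, by 2.30 ± 0.13, and Lss, which closes the ring to lanosterol, by 2.79 ± 0.12. Cyp51, the lanosterol demethylase, went from 8.36, 8.19 and 8.29 to 10.90, 10.94 and 10.91 (2.64 ± 0.15, adjusted p = 1.23e-10), and its 3 arrays at 600 min were almost equal. Of the other enzymes after lanosterol, beside Nsdhl, Msmo1 was 2.09, Hsd17b7 2.04, Sc5d 1.81, Dhcr7 1.56 and Tm7sf2 1.47 higher. Ebp, the isomerase that moves the ring double bond, had the smallest rise of the 11 at 0.58 ± 0.08 (adjusted p = 5.53e-06).

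The promoters of these genes are shown because their members rose together. Of the 18 measured sterol genes, 15 had a promoter window of 250 bases before to 50 bases after the start site in the RefSeq table (build GRCm38.p6). The CCAAT box, the letters CCAAT on either strand, which are those bound by the factor NF-Y, was present in 15 of the 15, Ggps1 among them, which was not called. Of 15614 tested genes with a window 41.7% held it, as did 37.4% of all 32851 windows. Of the genes of the replication, stress and clock lists with a window 57.4%, 63.0% and 86.7% held it. The letters TCACNCCAC, one form of the sterol regulatory element, were found in 1 of the 15, Hmgcs1, and in 1.4% of tested genes. These matches are descriptions of letters; binding was not measured. The 250 bases before the start site follow 5′ to 3′ on the gene's strand, with capitals marking the CCAAT box (read ATTGG from the other strand) in Idi1 (chr13:8885356-8885605, plus strand) and Nsdhl (chrX:72918271-72918520, plus strand), and the sterol regulatory element in Hmgcs1 (chr13:119690101-119690350, plus strand).
Idi1: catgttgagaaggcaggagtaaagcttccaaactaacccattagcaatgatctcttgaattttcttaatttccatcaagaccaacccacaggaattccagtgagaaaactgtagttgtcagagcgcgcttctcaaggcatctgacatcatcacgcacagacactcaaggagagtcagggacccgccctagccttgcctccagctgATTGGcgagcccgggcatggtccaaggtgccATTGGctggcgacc
Nsdhl: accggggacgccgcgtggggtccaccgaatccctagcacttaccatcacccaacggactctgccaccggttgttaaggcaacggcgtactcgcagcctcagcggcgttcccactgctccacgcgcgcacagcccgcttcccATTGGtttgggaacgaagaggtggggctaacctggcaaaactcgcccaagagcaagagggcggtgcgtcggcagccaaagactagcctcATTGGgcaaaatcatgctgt
Hmgcs1: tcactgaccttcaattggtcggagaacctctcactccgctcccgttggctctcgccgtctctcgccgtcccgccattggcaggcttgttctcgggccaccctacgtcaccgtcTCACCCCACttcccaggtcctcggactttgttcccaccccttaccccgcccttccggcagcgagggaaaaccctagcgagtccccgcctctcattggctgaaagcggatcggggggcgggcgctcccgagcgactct
In these stretches the capitals of Idi1 and Nsdhl are read from the strand opposite to the gene; the window of Nsdhl holds further matches after the start site, which are not printed.

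Genes that control the SREBP factors or move sterols changed unevenly. Of 14 measured members 5 rose and 1 fell, with a median of 0.10. The share called was 42.9%, against 26.9% of all genes in either direction. Insig1, which holds SREBP in the endoplasmic reticulum and is itself an SREBP target, went from 9.01, 9.21 and 9.53 to 11.97, 11.92 and 11.54 (2.56 ± 0.17, adjusted p = 1.35e-09). Stard4, a cytosolic sterol carrier, rose by 2.54 ± 0.17, and Lpin1, a phosphatidate phosphatase of lipid synthesis, by 1.12 ± 0.09. Srebf2, the SREBP gene of the sterol branch, rose by 0.68 ± 0.07 and Mbtps1, a protease that cleaves SREBP, by 0.67 ± 0.06. Scap, the escort of SREBP, fell by 0.29 ± 0.06 (adjusted p = 0.00125). Srebf1, the SREBP gene of the fatty acid branch, differed by 0.13 ± 0.07 (adjusted p = 0.195) and Abca1, a cholesterol exporter, by -0.18 ± 0.11 (adjusted p = 0.281).

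Of 16 measured fatty acid genes 13 rose and none fell, with a median of 1.19. Acly, which makes cytosolic acetyl-CoA from citrate, rose from 8.99, 9.00 and 8.98 to 10.70, 10.62 and 10.52 (1.62 ± 0.08, adjusted p = 2.41e-11). Fasn, fatty acid synthase, went from 8.41, 8.49 and 8.54 to 10.73, 10.45 and 10.20 (1.98 ± 0.10, adjusted p = 7.49e-11). The groups stood far apart for both genes, although the Fasn arrays at 600 min spread more widely than those at 0 min. Scd2, a desaturase, had the largest rise of the list at 2.21 ± 0.16. Elovl6, an elongase, rose by 1.90 ± 0.09, Acss2, which activates acetate, by 1.69 ± 0.09, Slc25a1, the mitochondrial citrate carrier, by 1.30 ± 0.07, and Scd1, a relative of Scd2, by 1.09 ± 0.08. Of the 3 genes not called, the one farthest below 0 was Elovl1, an elongase of very long chains, at -0.16 ± 0.07 (adjusted p = 0.11). The call of Acacb was lost without replicate 3 at 600 min or replicate 2 or 3 at 0 min (adjusted p up to 0.241).

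**Figure D2:**
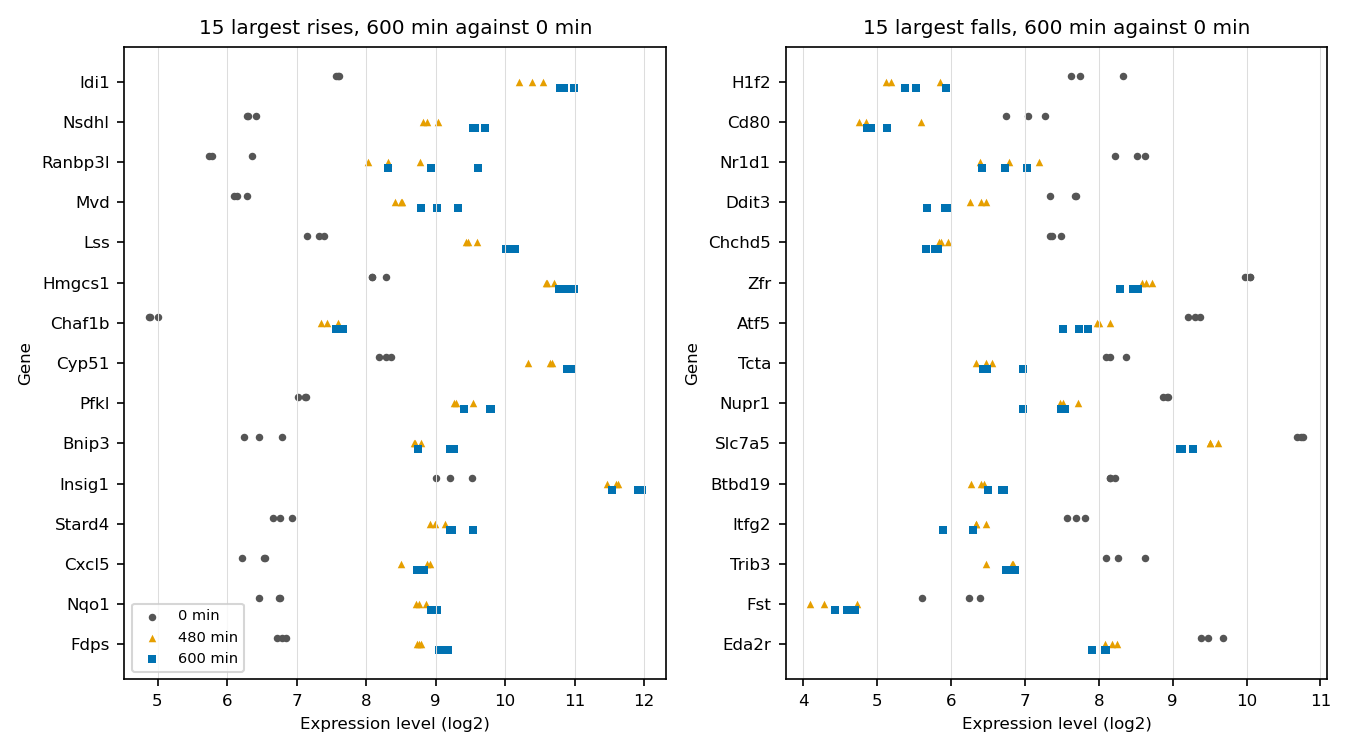
Expression level (log2) on each array at 0, 480 and 600 min for the 15 largest rises (left) and the 15 largest falls (right), 3 points per time. In all 30 genes the 600 min arrays lie beyond the 0 min arrays; the rises run from 2.33 (Fdps) to 3.29 (Idi1) and the falls from -1.49 (Eda2r) to -2.28 (H1f2).

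Of the 15 largest rises, 9 belong to the sterol and SREBP lists: Idi1, Nsdhl, Mvd, Lss, Hmgcs1, Cyp51, Insig1, Stard4 and Fdps. Ranbp3l, which belongs to the RAN-binding protein 3 family, rose from 6.35, 5.78 and 5.74 to 8.31, 8.94 and 9.62 (3.00 ± 0.33, adjusted p = 9.48e-07). Its 600 min arrays spread widely, yet all lay above the 0 min arrays. Cxcl5, a chemokine that attracts neutrophils, rose from 6.22, 6.53 and 6.54 to 8.73, 8.80 and 8.83 (2.36 ± 0.25, adjusted p = 6.35e-07). The other 4 are described with their groups: Chaf1b, Pfkl, Bnip3 and Nqo1.

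DNA replication genes rose as a broad block. The helicase that unwinds DNA is loaded at origins by the licensing factors, and the fork then needs polymerases, the clamp PCNA and its loader, and deoxynucleotides. Of 26 measured helicase and licensing genes 19 rose and 3 fell (median 0.73), of 28 fork genes 27 rose and none fell (median 1.03), and of 10 genes of deoxynucleotide supply 8 rose and 1 fell (median 0.61).

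Mcm6, a subunit of the MCM helicase, stood at 7.55, 7.72 and 7.78 at 0 min and at 10.10, 9.89 and 9.84 at 600 min (2.26 ± 0.27, adjusted p = 2.26e-06). It rose the most of the 6 MCM subunits, followed by Mcm7 (1.73 ± 0.16), Mcm4 (1.70 ± 0.20), Mcm5 (1.53 ± 0.17), Mcm3 (1.45 ± 0.16) and Mcm2 (0.90 ± 0.12). All 6 were called, and the difference between subunits was not tested. Gins1 and Cdc45, partners of MCM in the active helicase, rose by 1.75 ± 0.15 and 1.43 ± 0.14, and Gins4 by 0.70 ± 0.08. Cdc6, a loader of MCM, went from 4.80, 4.42 and 4.51, below the rough mark of signal of 6, to 6.69, 6.43 and 6.89 (2.09 ± 0.30, adjusted p = 1.90e-05). The members that fell were subunits of the origin recognition complex, which marks origins: Orc2 by 0.23 ± 0.05, Orc3 by 0.17 ± 0.04 and Orc5 by 0.32 ± 0.10. The call of Orc5 was lost without replicate 3 at 600 min or replicate 1 at 0 min (adjusted p up to 0.117), and that of Gins3 without 4 of the 6 arrays (replicates 1 and 2 at 600 min, replicates 2 and 3 at 0 min; adjusted p up to 0.0944).

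Chaf1b, a subunit of the chromatin assembly factor that places histones behind the fork, had the largest rise of the fork list. It was at 4.88, 4.89 and 5.01 before and at 7.65, 7.67 and 7.56 after (2.70 ± 0.25, adjusted p = 1.17e-07), and its level at 0 min lay below 6, the rough mark of signal. Chaf1a, its partner, rose by 1.52 ± 0.16 and Asf1b, another histone chaperone, by 1.45 ± 0.12. The primase genes Prim1 and Prim2 rose by 1.02 ± 0.08 and 1.20 ± 0.08, Pole, the leading-strand polymerase, by 1.58 ± 0.13, and Lig1, which joins Okazaki fragments, by 1.62 ± 0.14. Pcna, the clamp, went from 9.14, 9.41 and 9.21 to 10.77, 10.78 and 10.63 (1.48 ± 0.14, adjusted p = 1.07e-07). Rpa3, a subunit of the single-strand binding protein, was the member not called (0.37 ± 0.19, adjusted p = 0.175). Pold1 lost its call without replicate 3 at 600 min or replicate 2 or 3 at 0 min (adjusted p up to 0.238).

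In deoxynucleotide supply, Tk1, thymidine kinase, went from 5.87, 5.70 and 5.61 to 7.91, 8.07 and 7.56 (2.12 ± 0.14, adjusted p = 1.01e-09). Rrm2 and Rrm1, the subunits of ribonucleotide reductase, rose by 1.25 ± 0.15 and 0.76 ± 0.12, Dck, deoxycytidine kinase, by 1.01 ± 0.12, and Samhd1, which degrades deoxynucleotides, by 0.65 ± 0.07. Dtymk, thymidylate kinase, moved against the list from 9.00, 8.98 and 8.89 to 8.50, 8.40 and 8.62 (-0.45 ± 0.06, adjusted p = 1.48e-05). Every call in this list held without any 1 array.

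The E2F site TTTNGCGC, searched on both strands, lay in the promoter windows of 12 of 54 replication genes with a window, or 22.2%, against 2.11% of tested genes with a window and 1.38% of all windows. The 12 were Cdt1, Clspn, Dtl, Lig1, Mcm3, Mcm5, Mcm6, Mcm7, Orc1, Pola1, Pole2 and Rfc3. The lists were drawn up from general knowledge, so this share may follow from the choice of members. The window of Mcm6 held 3 matches, of which 2 overlap on opposite strands; it is printed for that reason (chr1:128359706-128359955, minus strand, 250 bases before the start site, matches in capitals).
Mcm6: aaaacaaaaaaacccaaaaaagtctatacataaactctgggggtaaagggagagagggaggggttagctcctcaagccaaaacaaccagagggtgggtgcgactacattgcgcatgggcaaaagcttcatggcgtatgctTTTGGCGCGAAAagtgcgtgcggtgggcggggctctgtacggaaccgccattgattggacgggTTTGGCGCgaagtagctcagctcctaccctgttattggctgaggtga
Of the genes with a match, Cdt1 (0.34 ± 0.13, adjusted p = 0.0515) and Orc1 (0.56 ± 0.22, adjusted p = 0.059) were not called.

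Cell cycle regulators moved in both directions. Of 22 measured G1 cyclins, E2F and retinoblastoma family genes, 13 rose and 4 fell (median 0.41). Ccne1, cyclin E1, went from 4.91, 4.98 and 5.00, below the rough mark of signal of 6, to 6.18, 6.31 and 6.37 (1.32 ± 0.21, adjusted p = 5.00e-05). Ccnd1, cyclin D1, which acts before cyclin E in G1, went the other way from 10.32, 10.25 and 10.23 to 9.67, 9.67 and 9.86 (-0.53 ± 0.09, adjusted p = 8.04e-05). The groups did not overlap for either cyclin. Cdk6, the kinase partner of cyclin D, fell by 0.45 ± 0.07 and E2f5, a repressive E2F, by 0.55 ± 0.09, the largest fall of the list. Tfdp1, the dimer partner of E2F, rose by 0.60 ± 0.06, Rbl1, the pocket protein p107, by 0.79 ± 0.11, E2f8 by 0.74 ± 0.10, and Skp2, which targets p27 for degradation, by 0.80 ± 0.12. E2f2 rose by 0.20 ± 0.06 but lost the call without replicate 2 at 600 min or at 0 min (adjusted p up to 0.0939).

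Of 6 measured inhibitors of cyclin-dependent kinases 33.3% were called, near the 26.9% of all genes called in either direction. The 2 called rose: Cdkn1b, which encodes p27, by 0.52 ± 0.13 (adjusted p = 0.00358), and Cdkn2d by 0.28 ± 0.10. The latter call was lost without any of replicates 1 and 3 at 600 min and replicates 1 and 2 at 0 min (adjusted p up to 0.246).

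G2 and mitosis genes were called higher in 22 of 31 cases and lower in none, with a median of 0.46, less than the 1.03 of the fork genes; the difference between the lists was not tested. Aurkb, the Aurora B kinase of chromosome segregation, rose from 7.21, 6.90 and 6.82 to 8.30, 8.30 and 7.98 (1.21 ± 0.11, adjusted p = 6.67e-08). Bub1, a spindle checkpoint kinase, rose by 1.05 ± 0.10, Nek2, a centrosome kinase, by 1.13 ± 0.13, Ccna2, cyclin A2, by 0.94 ± 0.10, Bub1b by 0.90 ± 0.11 and Top2a, which untangles DNA, by 0.74 ± 0.09. Of the 9 members not called, the one farthest below 0 was Cenpa, the centromeric histone, at -0.19 ± 0.09 (adjusted p = 0.125). Calls of Aurka and Nusap1 were lost without replicate 3 at 0 min (adjusted p = 0.0607 and 0.0826), and that of Cenpe without any array other than replicate 1 at 0 min (adjusted p up to 0.177).

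Histone genes, whose near-identical copies can share probes so that single members are uncertain, split: 4 of 13 measured rose and 6 fell (median -0.12, between -0.25 and -0.0073 without replicate 3 or 1 at 600 min). H1f2, a linker histone, had the largest fall of the whole comparison, from 7.75, 8.33 and 7.62 to 5.38, 5.53 and 5.93 (-2.28 ± 0.27, adjusted p = 1.83e-06). H1f5, another linker histone, rose from 8.37, 8.10 and 7.86 to 9.33, 9.17 and 9.09 (1.09 ± 0.11, adjusted p = 5.18e-07). These 2 members of 1 family thus moved apart with no overlap between times. H2bc4 fell by 1.39 ± 0.20, H2ax by 0.51 ± 0.08, H1f3 by 0.42 ± 0.10 and H2bc21 by 0.41 ± 0.09. The calls of H1f1, H2ac4 and H2bc18 were each lost without 3 or 4 of the 6 arrays, among them replicate 1 at 600 min (adjusted p up to 0.257).

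**Figure D3:**
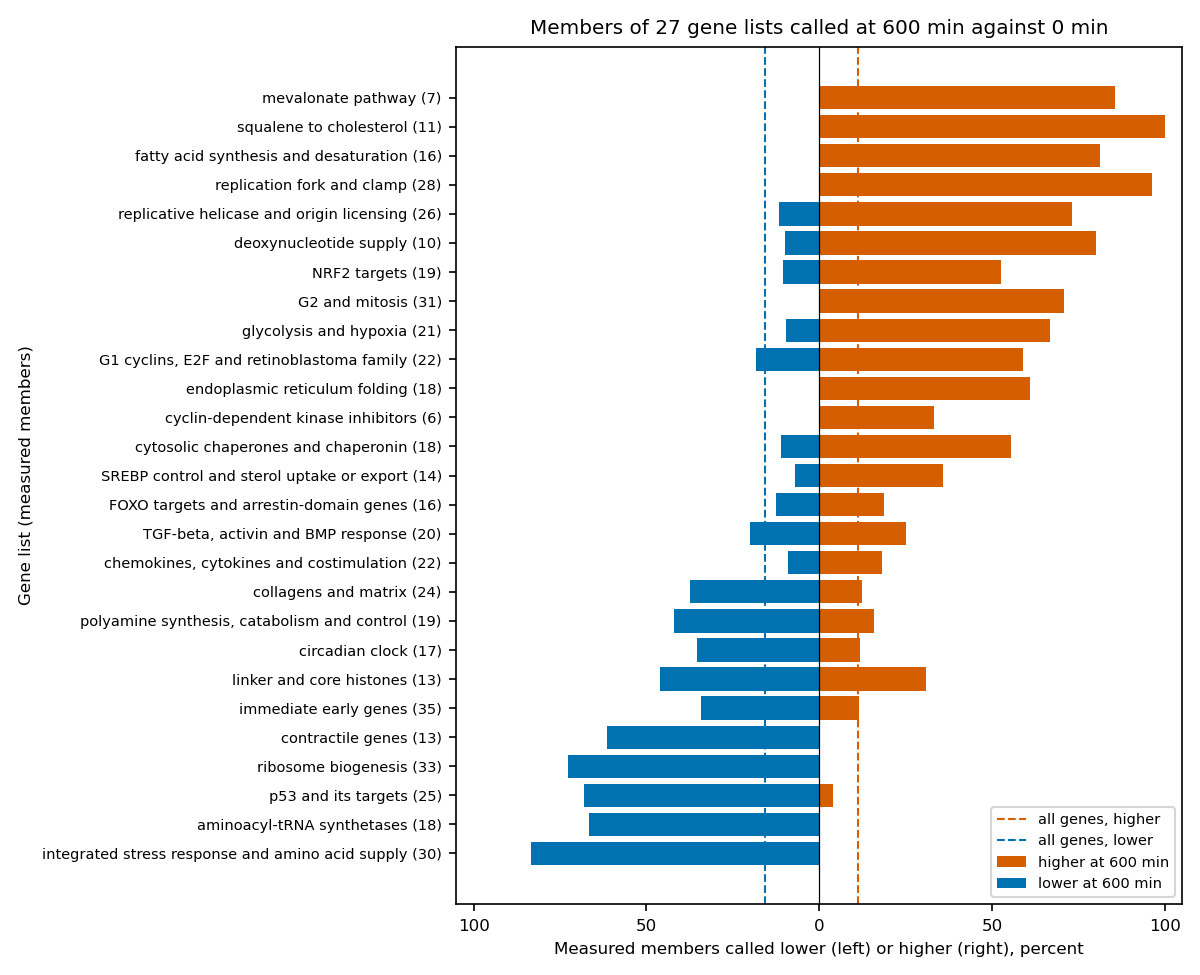
Share of measured members called higher (right) or lower (left) at 600 min than at 0 min, in percent, for 27 gene lists with the number of measured members in brackets, ordered by median difference. Dashed lines give the shares over all genes, 11.2% higher and 15.7% lower; sterol, fatty acid and replication lists reach far right of the line and stress, synthetase and ribosome biogenesis lists far left.

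Among the genes of polyamine metabolism and transport, 3 of 19 measured rose and 8 fell (median -0.07), against 11.2% and 15.7% of all genes. In the fit without dim genes 1606 of 7245 genes were higher and 2699 lower, so the falls lie closer to the share among brighter genes. Each call held without any 1 array. Odc1, ornithine decarboxylase and the target of DFMO, went from 9.78, 9.86 and 9.83 to 9.50, 9.33 and 9.33 (-0.44 ± 0.07, adjusted p = 4.69e-05). Srm, spermidine synthase, fell by 0.34 ± 0.07. On the side of degradation, Sat1, the acetyltransferase that starts polyamine breakdown, rose from 9.22, 9.30 and 9.22 to 9.97, 9.90 and 9.93 (0.69 ± 0.07, adjusted p = 5.71e-07). Smox, spermine oxidase, rose by 0.71 ± 0.10. Thus both synthesis genes called were lower and both catabolic genes called were higher. Only 19 of the 24 listed genes were measured, so this does not cover the whole pathway. Oaz2, an antizyme that marks ornithine decarboxylase for degradation, had the largest change of the list, from 5.42, 5.23 and 5.09 to 6.54, 6.67 and 6.22 (1.23 ± 0.16, adjusted p = 6.36e-06). The antizyme inhibitors Azin1 and Azin2, which free ornithine decarboxylase from antizyme, fell by 0.36 ± 0.08 and 0.48 ± 0.09. Of transport genes, Atp13a3, a polyamine transporter, fell by 0.69 ± 0.08, Atp13a2, its lysosomal relative, by 0.26 ± 0.07, and Slc3a2, an amino acid transporter chain also linked to polyamine export, by 0.74 ± 0.06. Dhps, which makes deoxyhypusine from spermidine, fell by 0.48 ± 0.07. The 8 members not called lay between -0.07 and 0.22: Dohh, the next hypusine enzyme, at 0.22 ± 0.11, Eif5a, which carries the hypusine, at -0.07 ± 0.07, its relative Eif5a2 at 0.07 ± 0.07, Mtap at 0.07 ± 0.06, Sat2 at 0.02 ± 0.07, Oaz3 at -0.07 ± 0.04, Arg1 at -0.03 ± 0.04 and Arg2 at -0.02 ± 0.04 (adjusted p between 0.145 and 0.902).

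The integrated stress response and amino acid supply gave the highest share of falls among the lists. None of 30 measured members rose and 25 fell, with a median of -0.78, against 15.7% of all genes lower. Ddit3, the stress factor CHOP, went from 7.68, 7.69 and 7.34 to 5.92, 5.97 and 5.68 (-1.72 ± 0.16, adjusted p = 9.47e-08). Atf4, the factor at the head of the response, fell from 10.41, 10.40 and 10.33 to 9.16, 9.07 and 8.91 (-1.33 ± 0.17, adjusted p = 5.20e-06). For both, every array at 600 min lay below every array at 0 min. Atf5, a related factor, fell by 1.59 ± 0.10, Nupr1, a stress-induced chromatin protein, by 1.58 ± 0.16, and Trib3, a pseudokinase that dampens the response, by 1.52 ± 0.22. Among transporters, Slc7a5, which carries large neutral amino acids, went from 10.73, 10.68 and 10.76 to 9.28, 9.13 and 9.09 (-1.56 ± 0.10, adjusted p = 7.96e-10), and its partner chain Slc3a2 fell as given above. Asns, asparagine synthetase, fell by 0.78 ± 0.06 and Vldlr, a lipoprotein receptor under ATF4 control, by 0.81 ± 0.08. The member farthest in the other direction was Ddit4, an inhibitor of mTORC1, at 0.43 ± 0.18 (adjusted p = 0.0832). Calls of Cebpb, Cebpg, Phgdh and Slc7a3 were each lost without 3 of the 6 arrays and that of Sesn2 without replicate 1 at 0 min (adjusted p up to 0.164 over the 5).

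The letters TGATGNAA, the composite element read by ATF4 with C/EBP partners, were found on either strand in the windows of 9 of 27 members with a window, or 33.3%, against 3.62% of tested genes and 3.97% of all windows. They were Asns, Atf3, Chac1, Nupr1, Pck2, Slc1a4, Slc7a11, Trib3 and Vldlr. This list was also drawn up from general knowledge of the response, so the share may follow from the choice of members. The stretches of Nupr1 (chr7:126625471-126625720, minus strand) and Vldlr (chr19:27216770-27217019, plus strand, the window holding the match of 2 windows listed) are printed as examples among the members that fell. The match is in capitals as read from the opposite strand.
Nupr1: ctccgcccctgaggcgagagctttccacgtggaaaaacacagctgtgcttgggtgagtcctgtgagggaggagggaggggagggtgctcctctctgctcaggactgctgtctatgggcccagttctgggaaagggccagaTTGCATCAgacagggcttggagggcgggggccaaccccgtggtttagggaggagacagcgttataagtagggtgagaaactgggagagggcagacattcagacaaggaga
Vldlr: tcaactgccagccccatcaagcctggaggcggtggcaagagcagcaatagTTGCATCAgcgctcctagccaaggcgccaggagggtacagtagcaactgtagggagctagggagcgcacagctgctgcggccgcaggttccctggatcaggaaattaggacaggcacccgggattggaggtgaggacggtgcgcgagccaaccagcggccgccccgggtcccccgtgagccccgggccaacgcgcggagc
Pck2, mitochondrial phosphoenolpyruvate carboxykinase, holds the letters too and differed by -0.06 ± 0.07 (adjusted p = 0.594).

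Aminoacyl-tRNA synthetases, which charge tRNAs with amino acids, fell in 12 of 18 measured cases and rose in none (median -0.52), and all 12 calls held without any 1 array. Yars, the tyrosine enzyme, went from 10.22, 10.01 and 10.17 to 8.85, 9.14 and 9.10 (-1.10 ± 0.11, adjusted p = 1.98e-07). Cars fell by 1.05 ± 0.11, Mars1 by 0.96 ± 0.10, Tars by 0.88 ± 0.07, Lars by 0.87 ± 0.08 and Eprs by 0.60 ± 0.05. The highest of the 6 not called was Qars, the glutamine enzyme, at 0.15 ± 0.07 (adjusted p = 0.13).

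Ribosome biogenesis genes, which make and process ribosomal RNA, fell in 24 of 33 measured cases and rose in none (median -0.36). Rrp12, a factor for export of ribosomal subunits, went from 8.83, 8.81 and 8.81 to 7.64, 7.66 and 7.50 (-1.22 ± 0.11, adjusted p = 4.48e-08), the largest fall of the list. Smaller falls were those of Gar1, of the pseudouridylation complex (-0.81 ± 0.09), Noc3l (-0.74 ± 0.08), Bop1 (-0.70 ± 0.06), Rrp9 (-0.70 ± 0.07), Heatr1 (-0.65 ± 0.06) and Gnl3 (-0.64 ± 0.06). The abundant nucleolar protein gene Npm1 was the highest of the 9 not called, at 0.11 ± 0.08 (adjusted p = 0.42). Calls of Nolc1, Nhp2, Wdr43 and Rrn3 were lost without replicate 2 at 600 min or, for the last 3, also without some of the other arrays (adjusted p up to 0.171).

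Of 25 measured p53 target genes 17 fell and 1 rose (median -0.47). Eda2r, a receptor of the tumour necrosis factor receptor family, went from 9.68, 9.48 and 9.38 to 8.08, 8.09 and 7.91 (-1.49 ± 0.21, adjusted p = 1.73e-05). Mdm2, the ligase that degrades p53, fell from 11.19, 10.98 and 10.97 to 10.10, 10.03 and 9.86 (-1.05 ± 0.16, adjusted p = 3.50e-05). Gadd45a, a growth arrest gene, fell by 1.12 ± 0.18, Plk2 by 1.15 ± 0.12, Aen, a nuclease, by 1.13 ± 0.11, and Ei24 by 0.75 ± 0.06. Sesn1, a stress-induced inhibitor of mTORC1, stood alone in rising, from 7.00, 6.93 and 7.06 to 9.25, 9.30 and 9.04 (2.20 ± 0.21, adjusted p = 1.56e-07). Its relative Sesn2, which is listed here and among the stress genes, was at 8.28, 7.64 and 7.34 before and at 6.85, 6.76 and 6.91 after (-0.92 ± 0.27, adjusted p = 0.0143). That call was lost without replicate 1 at 0 min (adjusted p = 0.105), the highest of its arrays. Of the 18 calls 12 held without any 1 array; the other 5 lost were Pmaip1, Tnfrsf10b, Trp53inp1, Phlda3 and Tigar, with adjusted p up to 0.178, and replicate 1 at 0 min was among the arrays whose absence ended each of them.

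Chaperones rose in part. In the endoplasmic reticulum 11 of 18 measured folding genes rose and none fell (median 0.37), and each call held without any 1 array. Calr, calreticulin, rose from 10.44, 10.49 and 10.27 to 11.06, 11.05 and 11.06 (0.66 ± 0.10, adjusted p = 2.51e-05). Sdf2l1, a partner of HSP40 proteins, rose the most, by 0.89 ± 0.19. Dnajc3 rose by 0.76 ± 0.11, Manf by 0.70 ± 0.13, Hsp90b1 by 0.52 ± 0.08, Pdia3 by 0.37 ± 0.06 and Pdia6 by 0.37 ± 0.06. Herpud1, of the degradation pathway, was farthest below 0 at -0.38 ± 0.15 (adjusted p = 0.0746). In the cytosol and mitochondria 10 of 18 measured genes rose and 2 fell (median 0.13). Hsph1, a nucleotide exchange factor of HSP70, led with 1.11 ± 0.13, from 10.09, 9.90 and 9.92 to 11.13, 11.26 and 10.86. Bag3 rose by 0.94 ± 0.16, Dnaja1 by 0.70 ± 0.11, Hsp90aa1 by 0.40 ± 0.06, Hspa8 by 0.37 ± 0.05 and Hspa1a, whose near-identical copy may share its probes, by 0.41 ± 0.06. The chaperonin gene Cct5 fell by 0.14 ± 0.04, a call lost without replicate 2 at 0 min (adjusted p = 0.0787). Dnajb1, Cct3, Cct8 and Tcp1 also lost theirs without 2 to 4 of the arrays (adjusted p up to 0.143).

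NRF2 targets, which serve detoxification and NADPH supply, rose in 10 of 19 measured cases and fell in 2 (median 0.59). Nqo1, a quinone reductase, went from 6.46, 6.74 and 6.76 to 8.94, 9.03 and 9.01 (2.34 ± 0.26, adjusted p = 7.66e-07). Me1, malic enzyme, which is also on the fatty acid list, rose by 1.38 ± 0.11, Cbr3 by 1.42 ± 0.21, Pgd by 0.94 ± 0.10, Gsta4 by 0.92 ± 0.12 and Tkt by 0.59 ± 0.08. Hmox1, heme oxygenase, moved against them from 8.63, 8.98 and 8.88 to 8.23, 7.97 and 7.87 (-0.81 ± 0.16, adjusted p = 0.000474). The other to fall was Slc7a11, the cystine transporter, which is also on the stress list (-0.69 ± 0.16).

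Glycolysis and hypoxia genes rose in 14 of 21 measured cases and fell in 2 (median 0.43), with every call kept without any 1 array. Pfkl, the liver-type phosphofructokinase, rose from 7.02, 7.13 and 7.13 to 9.80, 9.78 and 9.41 (2.57 ± 0.19, adjusted p = 5.27e-09), while its isoform genes Pfkm and Pfkp rose by 0.82 ± 0.08 and 0.49 ± 0.08. Bnip3, a mitophagy receptor induced by hypoxia, went from 6.25, 6.80 and 6.47 to 9.26, 9.21 and 8.75 (2.57 ± 0.26, adjusted p = 3.44e-07). Pdk1, which turns off pyruvate dehydrogenase, rose by 1.95 ± 0.14, Egln3 by 0.99 ± 0.13, Ldha by 0.60 ± 0.08 and Pgk1 by 0.42 ± 0.05. Hk2, a hexokinase, was the strongest fall at -0.64 ± 0.13 (adjusted p = 0.000635).

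In the circadian clock list 2 of 17 measured genes rose and 6 fell (median -0.08). Of all genes 11.2% were called higher, a share close to that of the list, and 15.7% lower. Without dim genes 2699 of 7245 genes were lower, a share closer to that of the list. Nr1d1, the repressor REV-ERB alpha, went from 8.52, 8.63 and 8.23 to 6.73, 6.42 and 7.03 (-1.73 ± 0.27, adjusted p = 4.78e-05), and its relative Nr1d2 fell by 0.62 ± 0.12. Dbp and Bhlhe41 each fell by 0.49, with standard errors of 0.13 and 0.08. Bhlhe40 rose by 0.73 ± 0.10 and Arntl, which Nr1d1 represses, by 0.35 ± 0.09 (adjusted p = 0.00876). The falls of Cry2 and Clock were lost without 3 and 5 of the 6 arrays (adjusted p up to 0.208). The E box CACGTG lay in the windows of 5 of 15 clock genes with a window, or 33.3%, against 9.5% of tested genes and 7.15% of all windows. They were Bhlhe41, Ciart, Cry1, Per1 and Tef, of which only Bhlhe41 was called. Here too the share may follow from how the list was drawn up.

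Immediate early genes, which respond to growth signals within minutes, rose in 4 of 35 measured cases and fell in 12 (median -0.16, and -0.25 without replicate 1 at 600 min). The share that rose was close to the 11.2% of all genes called higher, and 15.7% of all genes were called lower. The share that fell was closer to that in the fit without dim genes, 2699 of 7245. Egr1 was at 4.65, 4.30 and 4.33 before and at 4.12, 3.83 and 4.38 after (-0.32 ± 0.32, adjusted p = 0.557), and Fos differed by 0.07 ± 0.12 (adjusted p = 0.754). All these Egr1 values lay below 6, the rough mark of signal, so a fall could hardly show. Ier5 fell by 1.26 ± 0.14, Ccn2, the connective tissue growth factor, by 1.21 ± 0.24, Dusp4, a MAP kinase phosphatase, by 1.10 ± 0.19, Klf6 by 0.61 ± 0.10, and Myc, the growth factor-induced transcription factor, by 0.62 ± 0.14. Ier3 rose the most, from 5.26, 5.66 and 5.60 to 6.59, 6.40 and 6.04 (0.84 ± 0.21, adjusted p = 0.00499), ahead of Zfp36l1 (0.48 ± 0.09) and Dusp1 (0.45 ± 0.08). The calls of Fosl1, Jun, Nr4a1, Klf4 and Srf were lost without 2 to 4 of the 6 arrays, among them replicate 2 at 600 min and replicate 2 at 0 min (adjusted p up to 0.174).

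Contractile genes fell in 8 of 13 measured cases and rose in none (median -0.25). Myl9, a myosin light chain, went from 7.39, 7.58 and 7.35 to 6.34, 6.08 and 6.38 (-1.17 ± 0.16, adjusted p = 1.40e-05), Tpm1 fell by 0.53 ± 0.04, Myh9 by 0.40 ± 0.07, Cnn2 by 0.40 ± 0.07, Tagln by 0.38 ± 0.06 and Acta2 by 0.25 ± 0.03. The calls of Tpm2 and Actg2 were lost without replicate 2 at 0 min or 1 array at 600 min (adjusted p up to 0.123). Of 24 collagen and matrix genes 3 rose and 9 fell (median -0.04, and -0.13 without replicate 1 at 600 min). Here too the share that rose was close to the 11.2% of all genes, while 15.7% of all genes fell. In the fit without dim genes 2699 of 7245 genes fell, a share close to that of the matrix list. Col5a2, a fibrillar collagen, fell by 0.88 ± 0.09 (adjusted p = 3.66e-07), Tnc by 0.76 ± 0.13, Thbs1 by 0.66 ± 0.15, and Col8a1 by 0.54 ± 0.09. Eln, elastin, was the highest at 1.00 ± 0.27, a call lost without replicate 2 at 600 min or at 0 min (adjusted p up to 0.0678), and 4 other calls of this list, of Col4a2, Col6a3, Sparc and Bgn, were lost without 2 to 5 of the arrays (adjusted p up to 0.318).

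In the lists of secreted signals and of FOXO targets the share of members called was 27.3% for chemokines, 45.0% for TGF-beta and 31.3% for FOXO targets, against 26.9% of all genes in either direction. Of 22 chemokine, cytokine and costimulation genes 4 rose and 2 fell (median 0.01). Beside Cxcl5, Ccl2, which attracts monocytes, rose by 1.10 ± 0.12. Cd80, a costimulatory ligand of T cells, had the second largest fall of the comparison, from 7.27, 7.04 and 6.75 to 4.86, 4.91 and 5.13 (-2.05 ± 0.25, adjusted p = 2.44e-06). Of 20 TGF-beta, activin and BMP genes 5 rose and 4 fell (median 0.02). Fst, follistatin, which binds activin, fell by 1.51 ± 0.29 (adjusted p = 0.000405) and Inhba, which encodes activin A, by 1.18 ± 0.28, while the ligand genes Tgfb3 and Tgfb1 rose by 0.71 ± 0.11 and 0.50 ± 0.07. Of 16 FOXO target and arrestin-domain genes 3 rose and 2 fell (median 0.05): Ccng2, an atypical cyclin, rose by 1.20 ± 0.19, Sesn3 by 0.76 ± 0.09 and Foxo4 by 0.37 ± 0.08, and Txnip, an inhibitor of glucose uptake, fell by 1.04 ± 0.15 and Pik3ip1 by 0.33 ± 0.07. Calls of Nfkbia, Ski, Id3 and Inhbb in the first 2 lists were lost without 2 to 4 of the arrays (adjusted p up to 0.206).

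The falls that belong to no list were those of Chchd5, a mitochondrial protein gene, Zfr, which encodes a zinc finger RNA-binding protein, Tcta, Btbd19 and Itfg2, a component of a regulator of mTORC1. Zfr went from 10.05, 9.98 and 10.05 to 8.53, 8.28 and 8.47 (-1.60 ± 0.09, adjusted p = 1.23e-10), the smallest p among the 15 falls. Chchd5 fell by 1.65 ± 0.11, Tcta by 1.58 ± 0.14, Btbd19 by 1.53 ± 0.24 and Itfg2 by 1.53 ± 0.14.

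**Figure D4:**
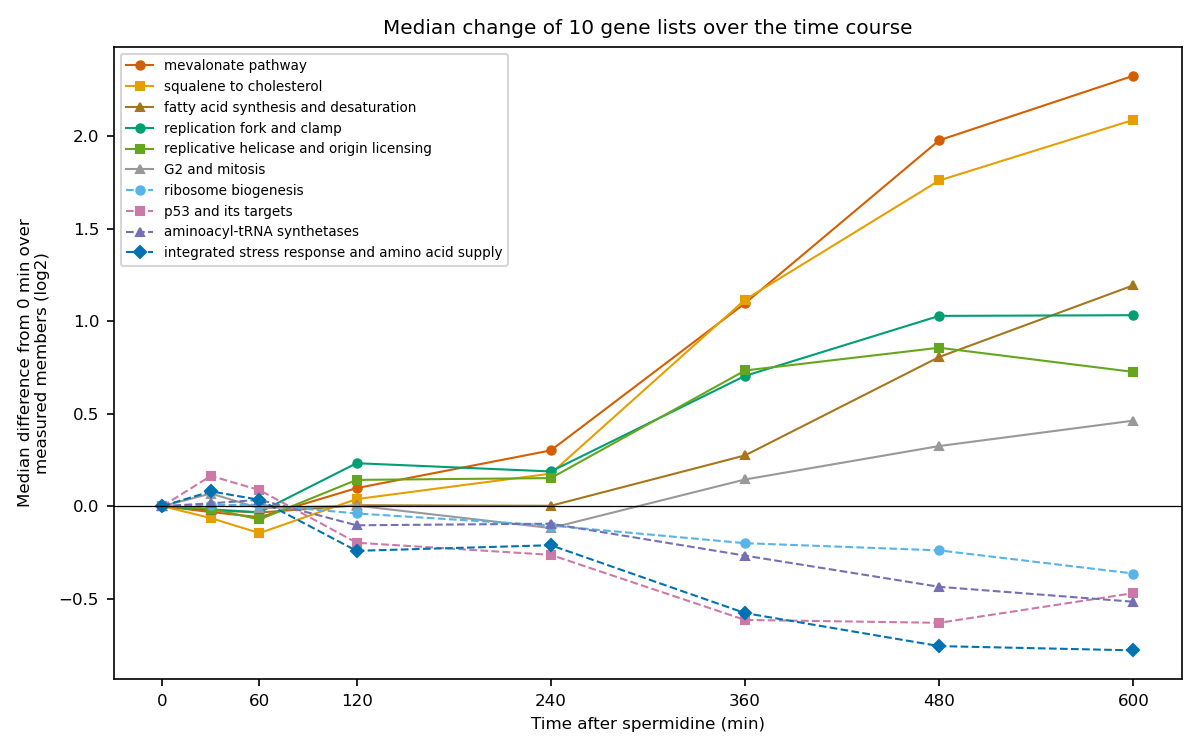
Median difference from 0 min (log2) over the measured members of 10 gene lists at each of the 8 times, in minutes after spermidine. The sterol lists climb from 240 min on and end at 2.33 and 2.09, the fork list stays at 1.03 from 480 to 600 min, and the stress list ends at -0.78.

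Placed in the time course, the sterol lists and the fork and helicase lists all moved mainly after 240 min. The median of the mevalonate list was 0.30 at 240 min, 1.10 at 360 min, 1.98 at 480 min and 2.33 at 600 min, and that of the fatty acid list 0.00, 0.27, 0.81 and 1.19. The fork list was at 0.19 at 240 min and 0.70 at 360 min, had reached 1.03 at 480 min and stood there at 600 min. The helicase list was at 0.15, 0.73, 0.86 and 0.73 at these times. The stress list was at -0.58 at 360 min, -0.76 at 480 min and -0.78 at 600 min. These medians share the 0 min arrays and are given as a description.

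The question of what was still changing was asked directly by setting 600 min against 480 min. Of 19938 genes 30 were higher at 600 min, 0.15% of all genes, and 6 were lower, 0.0301%, at an adjusted p under 0.05, while 1699 had an unadjusted p under 0.05. Of the 30 higher genes 29 were also called higher against 0 min, and 11 belong to the sterol, SREBP and fatty acid lists: Pmvk, Mvk, Tm7sf2, Nsdhl, Hsd17b7, Sc5d, Lpin1, Acss2, Elovl6, Acly and Slc25a1.

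**Figure D5:**
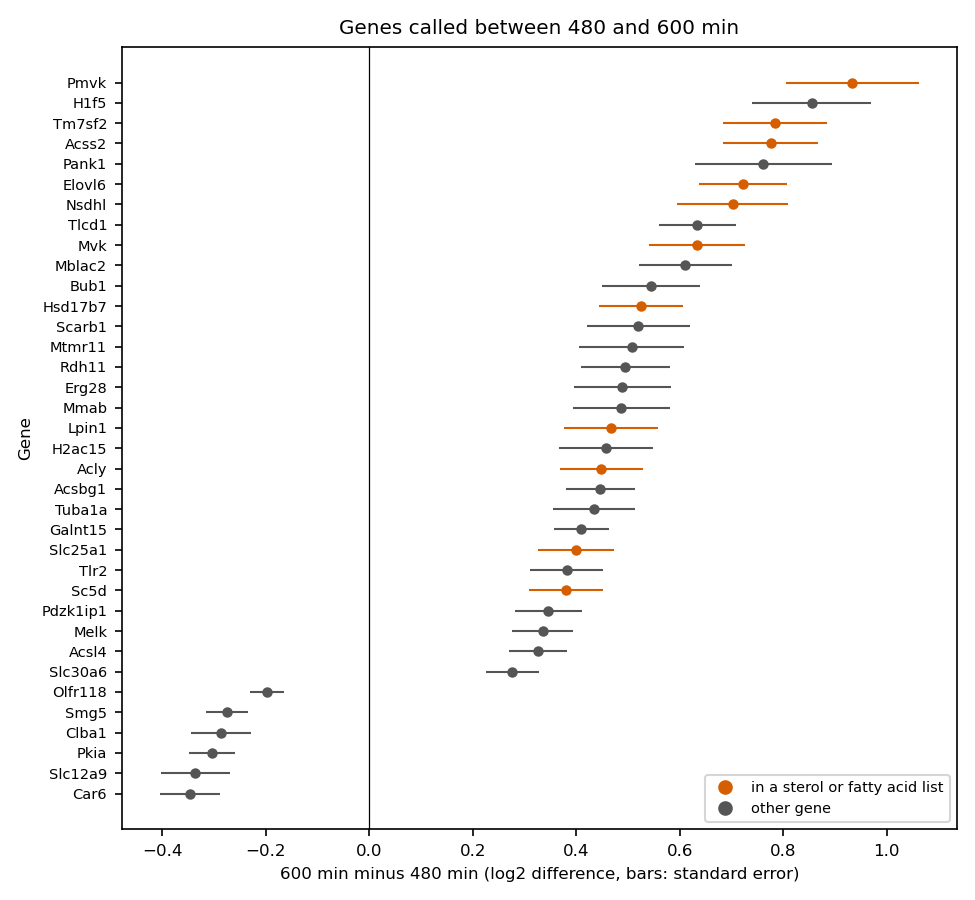
Difference between 600 and 480 min (log2, bars give the standard error of the fit) for the 36 genes called, with genes of the sterol and fatty acid lists in orange. The 30 higher genes run from 0.28 (Slc30a6) to 0.93 (Pmvk) and the 6 lower ones from -0.20 (Olfr118) to -0.35 (Car6).

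Pmvk, phosphomevalonate kinase, had the largest late rise, with a mean of 5.17 at 0 min, 5.34 at 360 min and 6.30 at 480 min and with 7.33, 7.43 and 6.93 on the arrays at 600 min (0.93 ± 0.13, adjusted p = 0.00176). H1f5 stood at a mean of 8.34 at 480 min and at 9.33, 9.17 and 9.09 at 600 min (0.85 ± 0.11, adjusted p = 0.0014), after a mean of 7.49 at 360 min that lay below its level of 8.11 at 0 min. Tm7sf2, a sterol reductase, rose by a further 0.78 ± 0.10, Acss2 by 0.78 ± 0.09 and Pank1, pantothenate kinase of coenzyme A synthesis, by 0.76 ± 0.13. Nsdhl was the single one of the 15 largest rises that was called here (0.70 ± 0.11, adjusted p = 0.00386), and none of the 15 largest falls was. Idi1 was 0.50 ± 0.23 above its 480 min level (adjusted p = 0.559) and Hmgcs1 0.25 ± 0.19 (adjusted p = 0.788). Bub1, at 0.54 ± 0.10, was the called member of the mitosis list, and no member of the replication lists was called.

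Among the 6 lower genes, Car6, a secreted carbonic anhydrase, fell by 0.35 ± 0.06 from 480 to 600 min, Pkia, an inhibitor of protein kinase A, by 0.30 ± 0.04, and Clba1 by 0.29 ± 0.06, and these 3 were also lower than at 0 min. Smg5, a factor of nonsense-mediated decay, fell by 0.28 ± 0.04 and Slc12a9 by 0.34 ± 0.07 from 480 min, while their differences from 0 min were not called (-0.10 ± 0.04, adjusted p = 0.095, and 0.11 ± 0.07, adjusted p = 0.268). The counts rested on few arrays. In the fits without 1 array the number of higher genes ran from 16 to 29, with 16 without replicate 2 and 19 without replicate 1 at 480 min. The number of lower genes was 19 without replicate 1 at 600 min, 2 without replicate 3 at 600 min or replicate 2 at 480 min, and 4 or 5 without the others. Of the 36 calls 14 held in all 6 fits, 12 higher and 2 lower, among them Pmvk, Mvk, Tm7sf2, Nsdhl, Hsd17b7, Acss2, Elovl6, H1f5, Pkia and Smg5. The calls of Pank1, Bub1, Lpin1, Acly, Sc5d, Slc25a1, Car6, Clba1 and Slc12a9 were each lost in at least 1 of them (adjusted p up to 0.237). With replicate 3 of 120 min and replicate 3 of 240 min left out together the numbers were 68 higher and 23 lower.

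Probe sets that carry several gene symbols or none were tested apart. Of 1621 with several symbols 66 were higher and 107 lower at 600 min than at 0 min, and of 11989 with no symbol 302 and 324, which is 10.7% and 5.22% called, compared with 26.9% of the genes with 1 symbol. Both kinds were adjusted together and apart from the genes, so these shares rest on unlike thresholds. At an unadjusted limma p under 0.05 the numbers were 401 of 1621, 1981 of 11989 and 6931 of 19938 genes. The largest rise among those without a symbol was 2.96 and the largest fall -1.73.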

How the data were processed

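RNA of 24 cultures was measured on Affymetrix MoGene 1.0 ST arrays, 3 at each of 8 times. The deposited values are probe set summaries on a log2 scale; Partek and RMA are named, without versions, per the submitters' processing notes, and the base of the logarithm was read from the range of the values. For every probe set the means of the 3 replicate numbers were equal in the deposited values, with a largest gap of 8.75e-05, so an effect of replicate number had been removed before deposit. The sources used here do not give the method. The 16 residual degrees of freedom of the main fit leave it out, so its standard errors and p-values tend to be too small. A fit with replicate number as a block has 14 and counts it. With the block, 1961 genes were higher and 2863 lower at 600 min than at 0 min. The fits without 1 array use values from which the effect had been removed with that array present. The labels do not say that a number marks a shared day or batch. Deviations of same-numbered 0 and 600 min arrays from their time means correlated at -0.24, -0.25 and -0.18, but the removed effect itself pushes these values below 0, so whether the numbers pair the arrays could not be checked.

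Of 35399 probe sets 21789 carried exactly 1 gene symbol in the platform annotation, 1621 several and 11989 none; each of 19938 genes was represented by its probe set with the highest mean over all arrays. A linear model with 1 mean per time over all 24 arrays was fitted (R 4.3.3, limma 3.58.1: lmFit, eBayes, two-sided). Benjamini-Hochberg adjustment ran over all genes, calls were made below 0.05, and no minimum size was asked. Errors of differences are standard errors of this fit. The scripts were tested on simulated data. Precision is limited by the number of arrays. The labels call the cultures biological replicates.

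The members and gene lists were chosen with earlier results of these data known. Genes were named by rule: the 15 largest rises and 15 largest falls whose arrays did not overlap and which carry a proper gene name, the 5 largest in each direction against 480 min, all members of the sterol and polyamine lists, and up to 6 members by adjusted p of every other list with the one moving most against it. Other list members were named after their values were seen. Lists are given by counts and medians, with no set test. Alternatives were a replicate block, the 6 arrays of a comparison alone, the fit without 120 min replicate 3 and 240 min replicate 3, dim genes left out, the mean over probe sets, quantile normalization, a trended robust eBayes, and each array left out in turn.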

Additional observations from a re-analysis of the deposited data

Results flagged for a closer look

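The genes given here differed between 600 and 480 min by the test of that difference itself (limma with Benjamini-Hochberg adjustment). Among the higher genes, Pmvk differed by 0.93, H1f5 by 0.85, Tm7sf2 by 0.78, Acss2 by 0.78, Pank1 by 0.76 and Nsdhl by 0.70 on the log2 scale. Among the lower genes, Car6 differed by -0.35, Slc12a9 by -0.34, Pkia by -0.30, Clba1 by -0.29 and Smg5 by -0.28. The calls of Clba1 and Slc12a9 were lost with replicate number as a block (adjusted p = 0.12 and 0.101), and those of Pank1, Car6, Clba1 and Slc12a9 in at least 1 fit without 1 array (adjusted p up to 0.206). H1f5 has near-identical relatives that may share its probes.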

How the results depend on the processing

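Against 0 min, the numbers of higher and lower genes stayed within 1.5 times under every alternative run: 1606 to 2473 higher and 2597 to 3287 lower. The fit without dim genes gave 1606 higher and 2699 lower among 7245 genes in place of 19938, so larger shares were called there. Quantile normalization gave 2473 higher and 2782 lower, or 47.1% higher among the calls in place of 41.6%. Of 388 differences from 0 min given by gene, 15 lost the call with the replicate block, 23 with the 6 arrays alone, 9 under quantile normalization, and 54 in at least 1 fit without 1 array. Each sign change among them concerned a gene that was not called: Pck2 was at 0.0019 under quantile normalization and between -0.12 and 0.025 in the fits without 1 array, Eif5a2 between -0.00087 and 0.13, and Sat2 between -0.044 and 0.049.

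Against 480 min the numbers moved more. From 30 higher and 6 lower genes, they came to 17 and 4 with the replicate block, 16 and 2 with the 6 arrays alone, 68 and 23 without 120 min replicate 3 and 240 min replicate 3, 34 and 10 under quantile normalization, and 16 to 29 and 2 to 19 in the fits without 1 array; the cause was not tested. The replicate block lost 6 of 19 calls given by gene there: Acly, Clba1, Lpin1, Sc5d, Slc12a9 and Slc25a1 (adjusted p from 0.0505 to 0.12). Against 0 min it lost those of Acacb, Acta1, Cct8, Cdkn2d, Cenpe, Clock, Col6a3, H1f1, Inhbb, Klf4, Krt14, Nr4a1, Pold1, Sparc and Tigar (adjusted p from 0.0503 to 0.0755).

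Leaving out dim genes, which leaves fewer genes in each list, moved the list medians furthest: to -0.87 for p53 targets, 0.36 for epithelial markers, 0.36 for chemokines, 0.44 for kinase inhibitors, -0.34 for polyamine genes, 0.97 for the helicase list, -0.25 for macrophage markers, -0.27 for clock genes and -0.30 for immediate early genes. The values for epithelial and macrophage markers are each that of 1 remaining gene, in the epithelial list Krt14. Without 600 min replicate 1 the medians came to -0.0073 for histones, -0.25 for immediate early genes and -0.13 for matrix genes, and without 600 min replicate 3 to -0.25 for histones. Medians near 0 changed sign for the chemokine list without 0 min replicate 2 (-0.0074) and for the FOXO list without 0 min replicate 3 (-0.016). Genes near the lowest values of the arrays cannot show a fall.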
